A study of Mus musculus with 18 samples.

Results

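Mouse C2C12 myoblasts overexpressing the spliced form of the long noncoding RNA MUNC were compared directly with C2C12 myoblasts overexpressing its genomic form, both proliferating in growth medium (GM). The comparison rests on 6 of the 18 RNA-seq libraries of the study, 3 per line, chosen by their sample titles. Of 35275 listed genes, the 13869 with at least 0.5 FPM in at least 3 of the 18 libraries were tested. FPM is a gene's fragments scaled for library size, not for gene length. C2C12 is an established line of mouse myoblasts, and the labels describe the cells of all groups as PAX7 negative. Each line and a control labelled wild-type were sampled with 3 biological replicates in GM with 20% fetal bovine serum, near confluence, and after 3 days in differentiation medium (DM3) with 2% horse serum. The 2 overexpressing lines were labelled MUNC spliced and MUNC genomic. The labels do not give the vector, its promoter, or whether a line was a clone or a pool, so clone and RNA form cannot be told apart. No gene in the table carries the name MUNC, and the overexpression itself was not checked. Differences below are spliced minus genomic values of log2(FPM + 1), in which low genes change by less than their true ratio. Values per library are given in the order of replicates 1, 2 and 3.

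MUNC, also called DRR eRNA, is transcribed from the distal regulatory region upstream of Myod1 and is known for raising the expression of myogenic genes in muscle precursors. Myoblasts carry the transcription factors Myf5 and MyoD while they divide. On serum withdrawal they leave the cell cycle, switch on myogenin and then the contractile, calcium-handling and fusion genes of the myotube. The myogenic regulators, the sarcomere and synapse genes and the cell cycle genes are the known readouts of this programme.

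Depth of the 6 libraries ranged from 38416702 to 68788327 recovered reads, and 3 reads correspond to at most 0.0757 FPM. The source field calls 4 of the 6 libraries myotubes, against their titles and their tissue labels. These are spliced replicates 2 and 3 and genomic replicates 1 and 2. The summed level of 40 mitosis genes was 5070 to 6794 FPM in the spliced and 7031 to 7528 FPM in the genomic GM libraries, and 674 to 2896 and 739 to 910 FPM in the DM3 libraries of the same lines. All 6 GM libraries thus lay above all 6 DM3 libraries of these lines. Limited to the libraries whose source field fits the title, which leaves 1 library per line in GM and lets the other groups give the spread, 1029 genes were called. Libraries of 1 line correlated at r = 0.986 to 0.995 across the tested genes and libraries of different lines at r = 0.938 to 0.958, and the first component (75.7% of the variance of the 6) separated the lines. The labels do not say that replicates came from separate cultures, so p-values measure only the spread between libraries of a group. In the limma fit over all genes that spread was taken from all 18 libraries, not from the 6 alone.

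The 2 lines differed in a large share of their genes. By limma with Benjamini-Hochberg adjustment at 0.05, 4970 of 13869 genes were called (35.8%). Of these, 2757 were higher (19.9% of the tested genes) and 2213 lower (16.0%) in spliced cells, with median differences of 0.66 and -0.62. The 3 spliced and 3 genomic libraries did not overlap for 6341 genes (45.7%), 4683 of them called. A difference of at least 1 was reached by 737 called genes above and 527 below, together 9.11% of the tested genes, and a difference of at least 4 by 31 and 28. Genes called higher took 15.3% to 17.2% of the FPM in spliced and 8.67% to 9.91% in genomic libraries, and genes called lower took 12.9% to 13.6% and 19.7% to 20.2%. The balance shifted with level: 69.9% of the calls were higher in spliced cells among genes under 1 FPM and 39.7% among genes over 100 FPM. The replicate numbers paired the libraries, and with the number as a block in a fit of the 6 libraries alone 7966 genes were called (57.4%). The split of the calls depended on scaling, with 61.4% of them higher in spliced cells when libraries were rescaled to equal sums and 50.5% when 4 segments of each chromosome were centred. Long intergenic noncoding RNAs and processed transcripts were called in 45.1% of 288 and 44.7% of 197, against 36.2% of 12421 protein-coding genes.

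**Figure D1:**
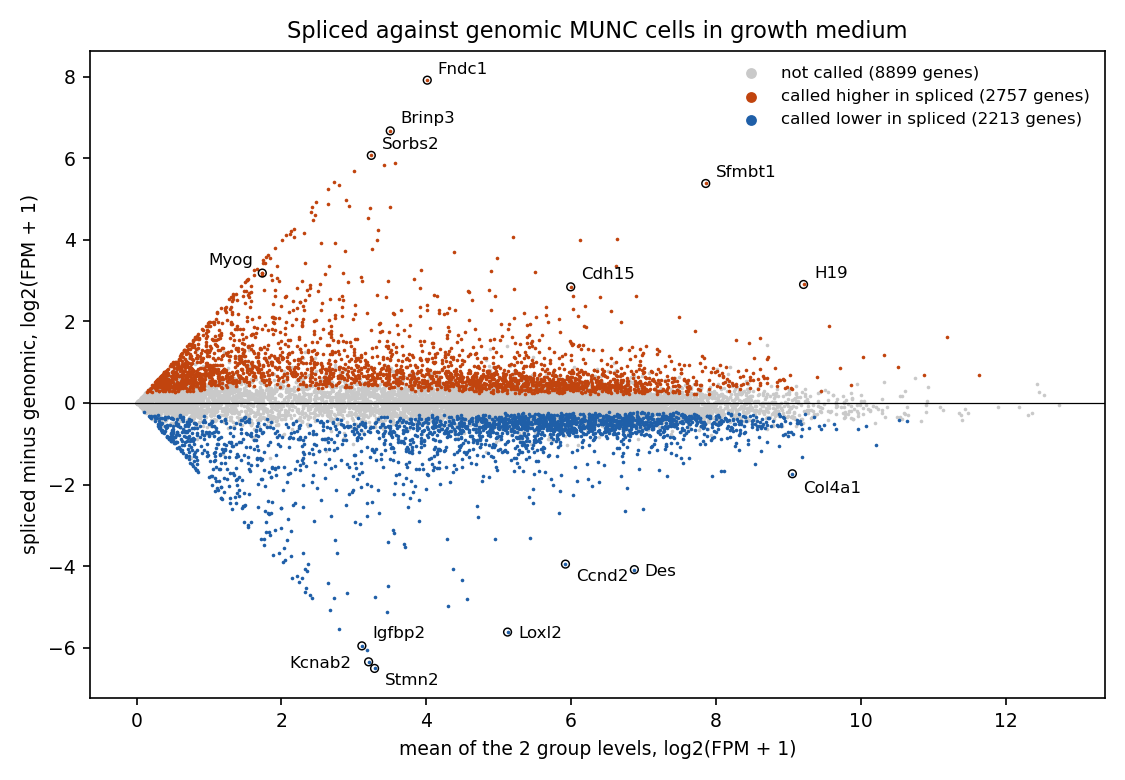
Difference between the lines (vertical axis, spliced minus genomic, log2(FPM + 1)) against the mean of the 2 group levels (horizontal axis, log2(FPM + 1)) for the 13869 tested genes, 1 point per gene, coloured by call. The 2757 genes above and 2213 below spread along the whole range of levels, and the sloping edges on the left are genes near 0 in 1 line.

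The gene with the largest difference was Fndc1, which encodes a fibronectin type III domain protein (ENSMUSG00000071984, chromosome 17, 7738569 to 7827302, minus strand, GENCODE M21 on GRCm38). Its level was 213, 376 and 180.0 FPM in the spliced libraries and 0.0429, 0 and 0 FPM in the genomic libraries, which is 3, 0 and 0 reads. The difference was 7.91 (SE 0.22, n = 3 per line, limma adjusted p = 5.51e-14), and the gene was close to 0 in the control libraries too, at 0.0171, 0.0354 and 0 FPM. Fitted values of genes this close to 0 in 1 line depend on the added 1. They are smaller than the observed log2 ratio of FPM and do not measure the fold. Brinp3, a gene mainly known from neurons, stood at 96.3, 136 and 109 FPM in spliced and 0.0716, 0.0169 and 0.273 FPM in genomic libraries (6.67). In the control it stood at 68.5, 52.05 and 42.2 FPM, on the side of the spliced line. Sorbs2, an adaptor of the actin cytoskeleton and Z-disc, was at 101, 77.5 and 54.8 against 0.229, 0.101 and 0.084 FPM (6.07). Sema3d, a secreted semaphorin, was at 87.1, 167 and 37.8 against 0.444, 0.743 and 0.105 FPM (5.89). The scavenger receptor gene Colec12 (5.84), Tmem45a (5.68), the sodium-calcium-potassium exchanger gene Slc24a3 (5.42), the pentraxin gene Ptx3 (5.34) and the membrane-type metalloprotease gene Mmp16 (5.24) completed the highest 10 with Sfmbt1. In all 10 the 3 spliced libraries lay above the 3 genomic libraries, which the rule that named them required. The control resembled the spliced line for Brinp3, Colec12 (mean 90.2 FPM) and Slc24a3 (mean 37.2 FPM), and was near the genomic line for Fndc1 and Sfmbt1.

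Sfmbt1, which encodes a Polycomb-related protein that binds methylated histones, differed from the others in having a clear level in every library (ENSMUSG00000006527, chromosome 14, 30714849 to 30822721, plus strand, GENCODE M21 on GRCm38). It was at 1719, 1453 and 1332 FPM in the spliced and 36.98, 32.8 and 34.9 FPM in the genomic libraries, a difference of 5.38 (SE 0.12, n = 3 per line, limma adjusted p = 1.01e-14). The control libraries, at 38.3, 32.6 and 38.2 FPM, lay close to the genomic line. In DM3 the difference was 4.11, and the difference between media was called (-1.28, limma adjusted p = 0.00024).

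Among the 10 genes lowest in spliced cells, 3 belong to neurons by their usual expression. Stmn2, which encodes the microtubule-destabilizing stathmin of growth cones (ENSMUSG00000027500, chromosome 3, 8509360 to 8561606, plus strand, GENCODE M21 on GRCm38), had 1 read in each spliced library and 99.02, 99.4 and 78.6 FPM in the genomic libraries. Its difference was -6.51 (SE 0.18, n = 3 per line, limma adjusted p = 7.15e-14). Nefl, the light neurofilament subunit, was at 2.27, 2.09 and 2.98 against 83.1, 96.8 and 155 FPM (-4.99), with a higher level still in the control (mean 265 FPM). Cacna1b, a neuronal N-type calcium channel subunit, was at 0.0252, 0.0917 and 0.108 against 37.9, 49.2 and 22.7 FPM (-5.06). Kcnab2, a potassium channel subunit, also had 1 read in each spliced library and stood at 91.7, 80.7 and 74.4 FPM in genomic cells (-6.35). Add2, a spectrin-binding adducin, was at 0.0505, 0.183 and 0.0902 against 64.99, 91.98 and 63.6 FPM (-6.05).

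Others of the lowest 10 are known from other tissues. Igfbp2, an insulin-like growth factor (IGF) binding protein, was at 0.0757, 0.0733 and 0.126 FPM in spliced and 62.3, 82.01 and 57.95 FPM in genomic libraries (-5.95). Loxl2, a lysyl oxidase that crosslinks collagen, was at 4.67, 4.12 and 2.58 against 249, 381 and 127 FPM (-5.62), and the control mean of 7.78 FPM was near the spliced line. Magea8, a gene of the melanoma antigen family on the X chromosome, was at 1.14, 0.77 and 0.685 against 72.2, 57.4 and 61.3 FPM (-5.12), and reads of that family could be split between near-identical copies. Lgr6, a receptor for R-spondins, was at 1.46, 2.38 and 7.18 against 80.99, 96.6 and 181 FPM (-4.79). For all of these genes the libraries of the lines did not overlap, which the rule that named them required.

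**Figure D2:**
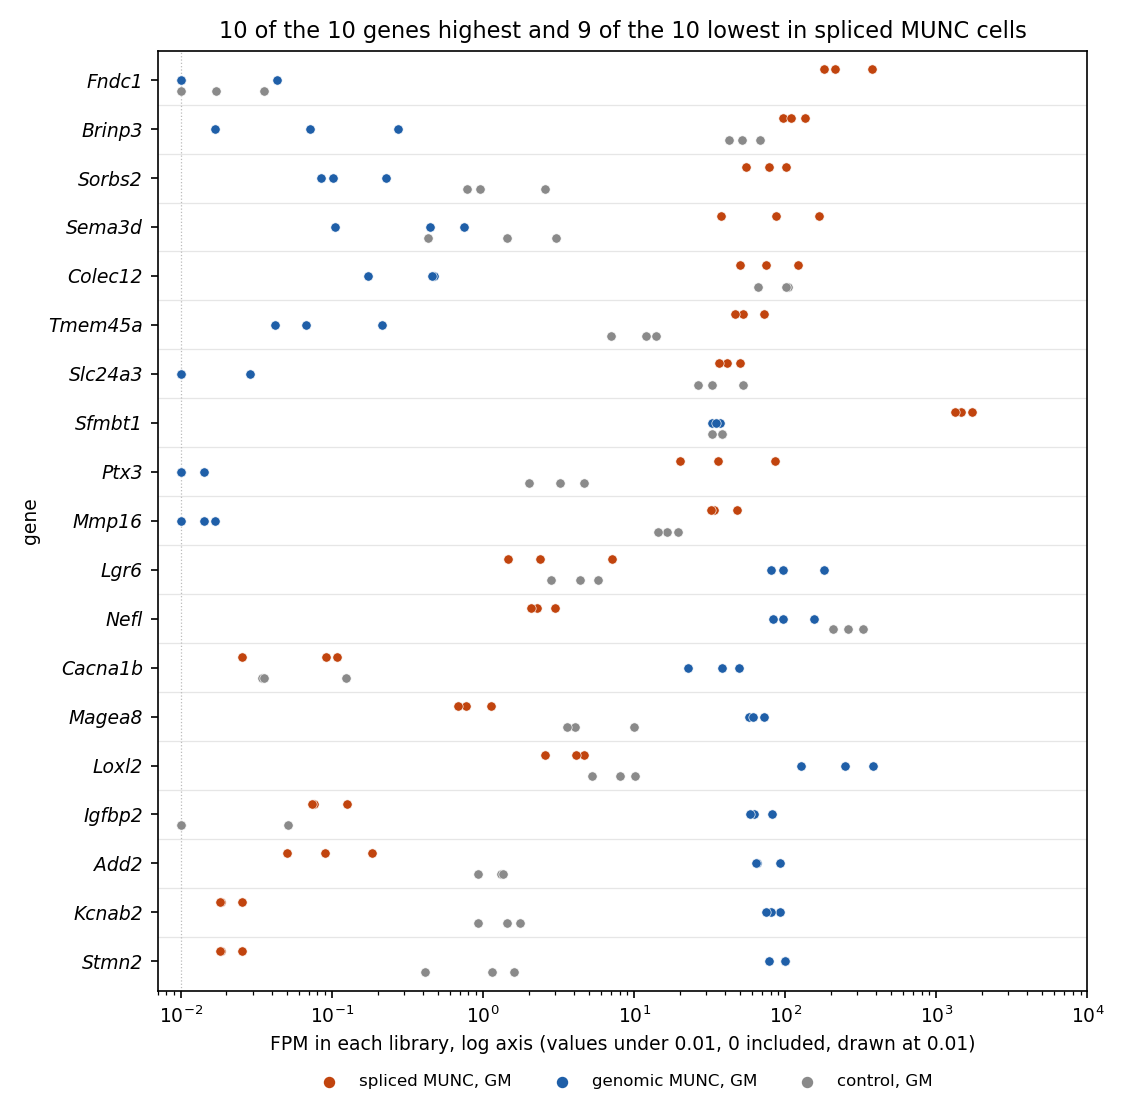
FPM in each GM library (horizontal log axis, values under 0.01 drawn at 0.01) for the 10 called genes with the highest and 9 of the 10 with the lowest difference among those that average at least 5 FPM in the higher line. Orange points are the 3 spliced, blue the 3 genomic and grey the 3 control libraries. Orange and blue never overlap, which the choice of genes required.

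In absolute FPM, which is not comparable between genes of different length, the largest excess in spliced cells besides Sfmbt1 was in matrix genes and H19. Col1a1, the alpha 1 chain of type I collagen, was at 2846, 5819 and 3304 FPM in spliced and 1162, 2139 and 767 FPM in genomic libraries (1.61, SE 0.31, n = 3 per line, limma adjusted p = 0.000764). Sparc, a collagen-binding matricellular protein, was at 4018, 4706 and 3185 against 2698, 3148 and 1694 FPM (0.69, limma adjusted p = 0.0242), with the lowest spliced library just above the highest genomic one. It was not called without spliced replicates 1 or 2 or genomic replicate 3 (adjusted p = 0.0627 to 0.139). H19, an imprinted noncoding RNA that is abundant in differentiating muscle, was at 1478, 1816 and 1182 against 218, 398 and 85.4 FPM (2.91). The largest deficits were Col6a3, of the pericellular type VI collagen, at 771, 743 and 995 against 1614, 1704 and 1727 FPM (-1.02), and Col4a1, of basement membrane collagen, at 323, 283 and 267 against 914, 1002 and 991 FPM (-1.73). They were followed by Psat1, an enzyme of serine synthesis, at 378, 352 and 368 against 862, 842 and 1082 FPM (-1.33), and Des, the muscle intermediate filament desmin, described with the muscle genes.

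Spliced cells carried more RNA of all 3 tested members of the MyoD family. Myf5, the family member of dividing myoblasts, was at 53.2, 63.8 and 59.01 FPM in spliced and 24.3, 30.1 and 25.8 FPM in genomic libraries (1.11, limma adjusted p = 9.56e-05). Myod1 was at 17.9, 8.84 and 10.5 against 1.66, 2.87 and 6.99 FPM (1.57, limma adjusted p = 0.00685), and the control mean was 0.0285 FPM. By DESeq2 on reads Myod1 was not called (adjusted p = 0.111). Myog, which drives entry into differentiation (ENSMUSG00000026459, chromosome 1, 134289989 to 134292548, plus strand, GENCODE M21 on GRCm38), was at 9.72, 12.6 and 5.48 FPM in spliced libraries and at 0.143, 0.101 and 0 FPM in genomic libraries (3.18, SE 0.45, n = 3 per line, limma adjusted p = 4.1e-05). All 3 genes were separated between the lines. Among 17 tested myogenic regulators these 3 were the only ones called (17.6%, against 35.8% of all genes), and the other 14 were not. The median of the list was 0.02, equal to the median of 0.02 over all genes. With the replicate block 5 were higher and 3 lower (all genes 25.1% and 21.9%). Mef2c stayed at or below 3 reads in every one of the 6 libraries and was not tested.

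Neuromuscular and calcium-handling genes differed in both directions, and more often upward. Of 23 tested genes of excitation-contraction coupling and the synapse, 10 were higher and 2 lower (52.2% called, against 35.8% of all genes), with a median of 0.62. Trdn, the triadin that anchors the calcium release complex, was at 25.9, 99.9 and 10.2 against 1.17, 2.28 and 0.063 FPM (3.99, SE 0.62), and both lines spread widely between replicates without overlapping. Cacng1, a subunit of the muscle calcium channel, was at 29.7, 44.4 and 29.2 against 1.65, 1.91 and 1.13 FPM (3.78, limma adjusted p = 3.59e-08). The calcium release channel gene Ryr1 was at 2.17, 3.13 and 2.96 against 0.258, 0.371 and 0.147 FPM (1.57). Lrp4, the agrin receptor of the synapse, was at 100.1, 149 and 91.9 against 19.7, 22.8 and 20.2 FPM (2.36), whereas its signalling partner Musk went the other way, at 1.46, 1.65 and 1.23 against 15.9, 19.7 and 12.2 FPM (-2.77, limma adjusted p = 1.68e-09). Jph2, which ties the cell membrane to the calcium store, was also lower, at 12.6, 13.5 and 16.1 against 27.9, 37.8 and 39.8 FPM (-1.25).

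Chrna1, the alpha subunit of the muscle acetylcholine receptor (ENSMUSG00000027107, chromosome 2, 73563215 to 73580338, minus strand, GENCODE M21 on GRCm38), was at 143, 182 and 98.4 FPM in spliced and 29.5, 47.9 and 35.1 FPM in genomic libraries (1.87, SE 0.28, n = 3 per line, limma adjusted p = 6.01e-05). All spliced libraries lay above all genomic libraries, and the control mean was 14.9 FPM. The promoter is shown because it is a textbook target of MyoD family proteins, whose binding sequence, the E-box, reads CANNTG with N any base. Only its forms CAGCTG and CAGGTG were searched, and they are marked in capitals. The window runs from 250 bases before to 50 after the start (RefSeq, GRCm38.p6, chr2:73580289-73580588, minus strand), 5′ to 3′.
Chrna1: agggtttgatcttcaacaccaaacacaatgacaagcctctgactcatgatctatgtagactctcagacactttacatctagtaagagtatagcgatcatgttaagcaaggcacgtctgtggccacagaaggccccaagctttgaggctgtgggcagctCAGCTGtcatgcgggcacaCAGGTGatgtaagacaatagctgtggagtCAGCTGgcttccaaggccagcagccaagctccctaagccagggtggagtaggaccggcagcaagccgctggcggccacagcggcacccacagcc
It holds 2 copies of CAGCTG, with first bases at -92 and -44 from the start, and 1 CAGGTG at -73. Searched on both strands, CAGCTG was in 15.7% of the 13051 windows of 10243 tested genes, in 16.8% of those of genes called higher and in 15.1% of those of genes called lower. CAGGTG, whose other strand reads CACCTG, was in 17.2%, 16.8% and 19.3%. The windows of Myog and Cdh15 hold neither sequence, which says only that these letters are not in those windows. Other E-box forms, such as a CAGTTG in the Myog window, were not counted.

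Most contractile genes had a positive difference, and few passed the test. Of 32 tested genes 7 were higher and 2 lower (28.1% called, against 35.8% of all genes). The median was 0.45, and 27 of the 32 had a positive difference. Ttn, the giant sarcomere scaffold titin, was at 8.38, 11.9 and 9.29 against 0.243, 0.321 and 0.084 FPM (3.15, limma adjusted p = 8.09e-05). Embryonic myosin Myh3 was at 1.44, 2.47 and 4.63 against 0.301, 0.152 and 0.063 FPM (1.64), the M-band gene Myom2 at 4.80, 6.86 and 5.07 against 0.845, 1.32 and 0.546 FPM (1.80) and the fast myosin light chain gene Mylpf at 2.52, 3.98 and 8.26 against 0.573, 0.793 and 0.588 FPM (1.73). Actc1, cardiac actin, was at 1.31, 0.99 and 0.938 against 0, 0.0169 and 0.084 FPM (1.01, limma adjusted p = 0.048), but the call was lost with chromosome segments centred (0.73, adjusted p = 0.169) and without spliced replicates 1, 2 or 3 or genomic replicates 1, 2 or 3 (adjusted p = 0.0757 to 0.12). Acta1, skeletal actin, was not called, at 5.55, 4.82 and 20.5 against 5.91, 6.55 and 12.1 FPM with overlapping libraries. Desmin was the exception in size and direction: Des was at 19.5, 41.998 and 21.97 FPM in spliced and 475, 622 and 332 FPM in genomic libraries (-4.08, SE 0.34, n = 3 per line, limma adjusted p = 8.75e-08), and the control mean of 24.2 FPM was within the spliced range. Tnnt2, cardiac troponin T, was lower too, at 19.3, 27.2 and 28.6 against 62.3, 66.1 and 67.8 FPM (-1.37). On recovered reads with edgeR 13 contractile genes were higher and 2 lower (18.6% and 18.1% of all genes), and without spliced replicate 3 the limma count was 4 higher. Myh3 was not called without spliced replicate 3 (adjusted p = 0.0665), and Mylpf not without spliced replicate 3 (adjusted p = 0.0599). In DM3 20 of the 32 were higher and 3 lower (23.4% and 20.8% of all genes).

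**Figure D3:**
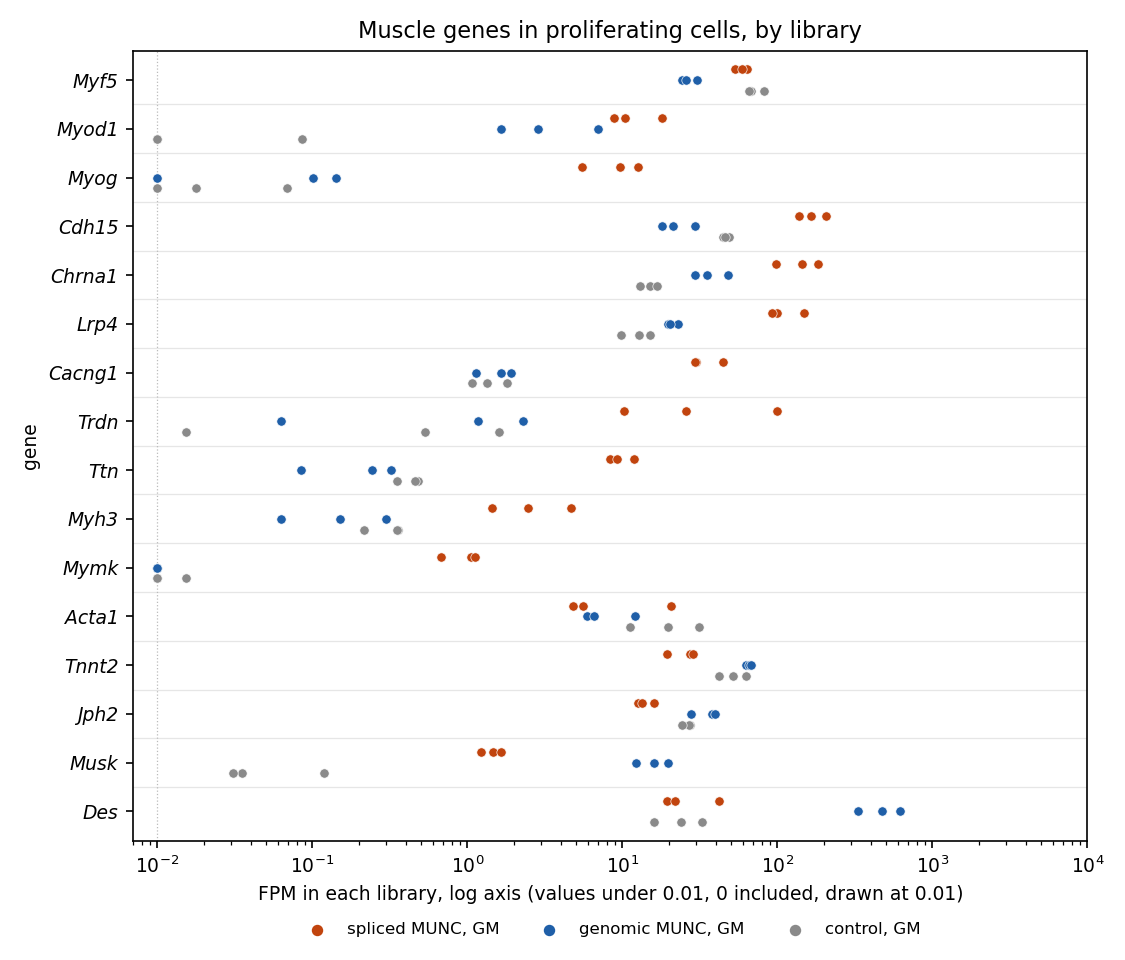
FPM in each GM library (horizontal log axis, values under 0.01 drawn at 0.01) for 16 muscle genes, in orange for spliced, blue for genomic and grey for control cells. The spliced libraries lie above the genomic ones from Myf5 to Mymk and below them from Tnnt2 to Des, and Acta1 overlaps.

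Cell contact genes of muscle also differed. Cdh15, the myoblast cadherin, was at 139, 206 and 164 FPM in spliced and 18.1, 29.3 and 21.2 FPM in genomic libraries (2.85, SE 0.23, n = 3 per line, limma adjusted p = 5.64e-08). Of 21 tested fusion and adhesion genes 6 were higher and 4 lower (47.6% called, against 35.8% of all genes), with a median of 0.23. The fusion protein gene Mymk had 0.681, 1.06 and 1.12 FPM in spliced libraries and no read in any genomic library, with a limma adjusted p of 0.069, of 0.000576 with the replicate block in the 6 libraries alone, and an edgeR adjusted p of 0.00042. Nfatc2, a calcium-regulated transcription factor, was lower, at 0.0757, 0.202 and 0.307 against 4.54, 3.06 and 4.24 FPM (-2.04). Of 16 tested satellite cell and quiescence genes 6 were higher and 2 lower (50% called, median 0.36). Among the higher genes were Cd34 at 71.4, 61.8 and 52.5 against 23.8, 24.3 and 12.2 FPM (1.62), Sdc3 (1.69) and Cd82 (1.44). The growth factor receptor gene Met was lower (-1.12). Without spliced replicate 2, genomic replicate 1 or genomic replicate 3, 3 genes of this list were higher, and without genomic replicate 3 4 were lower. Pax7 was not tested, with at most 0.147 FPM in any of the 6 libraries, and the labels call the cells PAX7 negative.

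Inhibitors of myogenic factors and smooth muscle genes were described as a check on the muscle lists. Of 14 tested Id proteins and MyoD inhibitors, 3 were higher and 2 lower (35.7% called, against 35.8% of all genes, median 0.64). The lower count was 1 without genomic replicate 2. With the replicate block 4 were higher and 4 lower (all genes 25.1% and 21.9%). With chromosome segments centred 2 were higher and 0 lower (all genes 13.7% and 13.4%). Snai2, a repressor that competes for E-boxes, was at 127, 106 and 87.1 against 45.9, 59.96 and 22.5 FPM (1.39), and Zeb2 was higher by 0.79 and Zeb1 by 0.62, the latter not with segments centred (adjusted p = 0.173). Bhlhe40 (-0.72) and Mdfic (-0.59), both on chromosome 6, were lower but lost the call with segments centred (adjusted p = 0.122 and 0.223), and Mdfic lost it without spliced replicate 3 or genomic replicate 2 (adjusted p = 0.0548 to 0.0649). Id1 and Id3 overlapped between the lines and were called only with the replicate block in the 6 libraries alone (adjusted p = 0.0253 and 0.0273). Of 20 smooth muscle genes 2 were higher and 4 lower (30% called, median -0.28), and 1 was higher without spliced replicate 2, genomic replicate 1 or genomic replicate 3. Actg2, enteric actin, was at 55.95, 22.99 and 40.02 against 129, 128 and 161 FPM (-1.86) and Cnn1, calponin, at 2.40, 1.19 and 1.98 against 6.97, 6.23 and 6.32 FPM (-1.42), while Synpo2 was higher (1.17). Acta2, the major smooth muscle actin, was not called and overlapped.

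Most cell cycle genes had a negative difference, and few passed the test. None of 40 mitosis genes was called by limma, 1 had an unadjusted p under 0.05, edgeR called 0, and limma with the replicate block over 18 libraries called 1 lower. These fits take their spread from all 18 libraries, and the summed level of the list ranged from 674 to 2896 FPM among the spliced DM3 libraries. The effect of that range on the calls was not tested, and the list count in a fit of the 6 libraries alone is not reported here. The median of the 40 genes was -0.38, and 34 of 40 were below 0. In 19 the 3 spliced libraries lay below the 3 genomic ones. Over all genes 45.7% did not overlap, but that share counts both directions and is not a like measure for 1 direction. Mki67, a marker of cycling cells, was at 391, 395 and 391 against 591, 604 and 559 FPM (-0.57, limma adjusted p = 0.269), and was called lower in the fit of the 6 libraries alone, without and with the block (adjusted p = 0.00553 and 0.00033). Of 40 S phase genes 0 were higher and 5 lower (12.5% called, against 35.8% of all genes, median -0.35), and 9 were lower with the replicate block. The helicase gene Mcm2 was at 112, 75.6 and 139.5 against 236, 207 and 315 FPM (-1.23), Hells at 143, 90.3 and 142 against 290.1, 219.6 and 276 FPM (-1.08) and Mcm6 at 229.6, 165 and 260.4 against 379, 319.8 and 469.8 FPM (-0.84, not called with segments centred, adjusted p = 0.0652). Hells was not called without spliced replicate 2 or genomic replicates 1 or 3 (adjusted p = 0.0501 to 0.0867), and Mcm6 not without spliced replicates 1 or 2 or genomic replicates 1 or 3 (adjusted p = 0.0686 to 0.162). The 5 S phase calls fell to 3 without spliced replicate 1, 1 without spliced replicate 2, 3 without genomic replicate 1 and 2 without genomic replicate 3. Pcna and Mcm5 overlapped and were not called, except Mcm5 with the replicate block in the 6 libraries alone (adjusted p = 0.00255).

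Cyclin D2 stood apart from this pattern. Ccnd2, a G1 cyclin (ENSMUSG00000000184, chromosome 6, 127125162 to 127152193, minus strand, GENCODE M21 on GRCm38), was at 11.4, 14.1 and 18.1 FPM in spliced and 224, 232 and 252 FPM in genomic libraries (-3.95, SE 0.17, n = 3 per line, limma adjusted p = 2.51e-11). The control, at 89.4, 129 and 105 FPM, lay between the lines. Ccnd1 was lower as well, at 250.3, 124 and 274 against 403, 352 and 549 FPM (-1.06). Of the 10 tested CDK inhibitors, D cyclins and retinoblastoma family genes 1 was higher and 3 lower (40% called, against 35.8% of all genes, median -0.20). The inhibitor gene Cdkn2c was higher (0.84) and Cdkn1b lower (-0.56), and neither kept its call with segments centred (adjusted p = 0.296 and 0.278). Cdkn2c, the 1 higher call, was lost without spliced replicate 1 or genomic replicate 1 (adjusted p = 0.0536 to 0.0831), and Cdkn1b without spliced replicates 1 or 3 or genomic replicates 1 or 2 (adjusted p = 0.0775 to 0.154). Cdkn1a, the inhibitor that accumulates in differentiating myoblasts, overlapped and was not called (0.38).

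The list with the largest share of lower calls was the stress response driven by the transcription factor Atf4, which raises amino acid synthesis and transport when translation is restrained. Of 32 tested genes 21 were lower and 1 higher in spliced cells (68.8% called, against 35.8% of all genes). The median was -0.79, and without any 1 of the 6 libraries 15 to 20 were lower. The summed level of the list was 4133 to 4156 FPM in the spliced, 7074 to 8445 FPM in the genomic and 6506 to 8517 FPM in the control libraries, so the control lay with the genomic line. Asns, asparagine synthetase, was at 148, 156 and 147 against 436, 485 and 510.2 FPM (-1.66, SE 0.17, n = 3 per line, limma adjusted p = 9.18e-07). Aldh1l2 was at 139, 187 and 138 against 465, 588 and 422 FPM (-1.66) and Mthfd2 at 126, 100.2 and 116 against 272, 269.7 and 329 FPM (-1.34), both of mitochondrial one-carbon metabolism. Atf4 itself was at 411, 382 and 344 against 521, 583 and 558 FPM (-0.55, limma adjusted p = 0.00117). Sesn2, a sensor of leucine, was the 1 gene higher (0.80), but not with segments centred (adjusted p = 0.263) or without genomic replicate 1 (adjusted p = 0.0874). Ddit3, the proapoptotic factor of prolonged stress, was not called (-0.09). After 3 days of differentiation the list looked different, with 12 genes higher, 2 lower (23.4% and 20.8% of all genes) and a median of 0.31. For the difference between media 18 of the 32 were called (10.5% of all genes), each toward higher values in DM3.

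More glycolysis and hypoxia genes were called lower than higher, with a median closer to that of all genes than in the Atf4 list. Of 37 tested genes 2 were higher and 9 lower (29.7% called, against 35.8% of all genes, median -0.19). The higher count was 1 without spliced replicate 3 or genomic replicate 1. Slc16a3, the lactate exporter, was at 1.16, 1.41 and 1.48 FPM in spliced and 42.6, 54.02 and 58.8 FPM in genomic libraries (-4.48, limma adjusted p = 1.44e-11), with the control mean at 1.51 FPM. The phosphofructokinase gene Pfkp was at 18.9, 28.4 and 20.4 against 51.4, 75.001 and 51.7 FPM (-1.35), and Egln3 was lower by -1.002 on the log2 scale of the difference. Hk2, hexokinase 2, was lower with overlapping libraries (-0.63) and not with segments centred (adjusted p = 0.391), nor without spliced replicates 1 or 2 or genomic replicate 3 (adjusted p = 0.0802 to 0.168). Slc2a1 and Ldha were not called, except Slc2a1 with segments centred (adjusted p = 0.0291) and Ldha with the replicate block in the 6 libraries alone (adjusted p = 0.0172). Car3, carbonic anhydrase 3 of slow muscle and fat, was the main gene higher, at 509, 590.1 and 111 against 29.8, 34.7 and 6.32 FPM (4.01, SE 0.65, limma adjusted p = 0.000145), and replicate 3 was the lowest in both lines.

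Extracellular matrix genes moved in both directions. Of 30 tested collagen chains 9 were higher and 9 lower (60.0% called, against 35.8% of all genes, median 0.11). Besides Col1a1, Col12a1 was at 528, 779 and 420.5 against 236, 283 and 121 FPM (1.47) and Col8a2 at 9.36, 9.84 and 1.91 against 0.0286, 0.169 and 0.021 FPM (2.69). Chains lower in spliced cells included those of basement membranes and anchoring fibrils, with Col4a6 at 0.177, 0.0183 and 0.0902 against 20.2, 25.7 and 16.5 FPM (-4.30), Col7a1 at 8.28, 9.57 and 8.33 against 78.8, 117 and 95.95 FPM (-3.32) and Col18a1 at 33.97, 73.4 and 47.04 against 239, 435 and 258 FPM (-2.59). Col3a1 overlapped and was called only with the replicate block in the 6 libraries alone (adjusted p = 0.0487). Matrix glycoproteins and proteoglycans were higher in 17 and lower in 5 of 46 tested genes (47.8% called, median 0.32). The small proteoglycan genes Prelp and Omd were at 42.5, 19.7 and 15.4 against 0.243, 0.0338 and 0.021 FPM (4.49) and 38.7, 23.4 and 14.95 against 0.759, 0.844 and 0.399 FPM (3.91). Smoc2, a calcium-binding matricellular protein, was the lowest of the list, at 7.04, 1.80 and 3.63 against 98.2, 47.99 and 98.2 FPM (-4.06). Fn1 overlapped and was not called. Postn was not called either (0.72, limma adjusted p = 0.0953), but passed with the replicate block (adjusted p = 0.0342).

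Matrix proteases and crosslinkers divided too. Of 47 tested genes 14 were higher and 12 lower (55.3% called, against 35.8% of all genes, median 0.14). The aggrecanase Adamts5 was at 327, 282 and 159 FPM in spliced and 16.7, 30.9 and 5.50 FPM in genomic libraries (3.99, limma adjusted p = 3.33e-06), and the procollagen peptidase Adamts2 at 81.97, 107 and 71.9 against 11.7, 11.7 and 3.76 FPM (3.25). The gelatinase genes were lower: Mmp2 was at 27.7, 34.6 and 31.7 against 81.6, 97.8 and 60.5 FPM (-1.30) and Mmp9 at 0.0505, 0.165 and 0.108 against 2.72, 5.47 and 0.609 FPM (-1.61). Serpinf1, an antiangiogenic serpin, was at 115, 142 and 139.6 against 423, 468 and 475 FPM (-1.78). The crosslinking enzymes split, with Loxl2 lower and Lox, at 1743, 1784 and 1063 against 1242, 1149 and 791 FPM, not called by the first fit (adjusted p = 0.0528) and higher with the replicate block (adjusted p = 0.00836). Timp1 was higher (0.76) with overlapping libraries, but not without spliced replicate 3 or genomic replicates 1 or 2 (adjusted p = 0.0717 to 0.102). Of 24 integrin and laminin subunits 4 were higher and 7 lower (45.8% called, median 0.09), with 2 higher without spliced replicate 2 or genomic replicate 1. Lama2, the laminin chain of the muscle basement membrane, was at 3.05, 4.80 and 0.992 against 45.05, 54.7 and 26.6 FPM (-3.52) and the laminin receptor subunits Itga6 and Itgb4 were lower too, Itga6 at 20.7, 15.6 and 29.02 against 131, 148 and 149 FPM (-2.69) and Itgb4 with a difference of -1.55. Itga7, the muscle laminin receptor, was higher, at 175, 294 and 259 against 109, 174 and 125 FPM (0.83), but not without spliced replicates 2 or 3 or genomic replicates 1 or 3 (adjusted p = 0.0547 to 0.0861).

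Several secreted proteins of the Wnt and BMP pathways differed by more than 3 on the log2(FPM + 1) scale. Of 34 tested Wnt genes 14 were higher and 8 lower (64.7% called, against 35.8% of all genes, median 0.25). The ligand gene Wnt7b was at 1.39, 7.86 and 3.34 FPM in spliced and 85.3, 147 and 59.7 FPM in genomic libraries (-4.35, limma adjusted p = 1.99e-07), and the secreted Wnt binder Sfrp2 at 0.101, 0.0183 and 0.018 against 14.6, 9.08 and 6.53 FPM (-3.34). The receptor gene Fzd8 was at 12.6, 10.9 and 10.6 FPM in spliced libraries with no read in any genomic or control GM library, the receptor gene Ror2 at 3.89, 5.55 and 5.99 against 0, 0.0169 and 0 FPM (2.59), and the R-spondin gene Rspo3 at 6.26, 5.48 and 2.002 against 0.0143, 0.186 and 0 FPM (2.29). The target gene Axin2 was low in both lines and higher in spliced cells (0.404, 1.06 and 0.866 against 0.0143, 0 and 0 FPM, 0.80), but not without spliced replicate 2 (adjusted p = 0.0557). Of 46 tested genes of the TGF-beta, BMP and activin pathway 11 were higher and 11 lower (47.8% called, median 0.04). The lower count was 6 or 7 without any 1 library other than genomic replicate 3 and 7 with equal sums. The ligand gene Bmp4 was at 42.1, 22.5 and 16.1 against 0, 0 and 0.021 FPM (4.68, limma adjusted p = 4.06e-10). The activin and myostatin binder Fst was at 18.8, 3.54 and 6.96 against 0.0143, 0.0169 and 0.042 FPM (3.13). Bmpr1b, a BMP receptor, was at 0.328, 0.293 and 0.433 against 9.42, 8.19 and 5.38 FPM (-2.65), and Tgfb1 was lower by a smaller difference (-0.57). Mstn had no read in any of the 6 libraries.

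Of 25 tested Notch genes 7 were higher and 3 lower (40% called, against 35.8% of all genes, median 0.23), and 5 were lower with the replicate block. The receptor gene Notch1 was at 21.7, 25.04 and 23.1 against 3.13, 4.69 and 1.43 FPM (2.65, SE 0.28, n = 3 per line, limma adjusted p = 1.65e-06), the glycosyltransferase gene Lfng at 45.98, 23.6 and 38.1 against 13.3, 10.8 and 21.4 FPM (1.19), and the ligand gene Jag2 lower, at 10.9, 20.6 and 16.3 against 32.02, 43.2 and 40.98 FPM (-1.26). The target genes Hes1 and Heyl overlapped and were not called, but both passed with the replicate block in the 6 libraries alone (adjusted p = 0.00216 and 0.00142) and Heyl without spliced replicate 3 (adjusted p = 0.0197). Of 39 tested genes of fibroblast growth factor (FGF) and receptor tyrosine kinase signalling 7 were higher and 14 lower (53.8% called, median -0.27). Among the lower genes, the transcription factor gene Etv4 was at 18.98, 9.70 and 22.9 against 45.7, 50.1 and 63.6 FPM (-1.64), and the phosphatases Dusp4 at 68.8, 27.002 and 62.1 against 149.7, 118 and 158 FPM (-1.51) and Dusp5 at 9.24, 8.18 and 10.9 against 20.7, 21.8 and 35.5 FPM (-1.34). Spry4, a feedback inhibitor, overlapped and was not called (-0.01). Fgfr1 was lower (-0.66), but not without spliced replicates 1 or 2 or genomic replicate 3 (adjusted p = 0.0551 to 0.0852). Egfr was higher (1.003), and so was the ligand gene Fgf10, at 3.46, 0.715 and 1.39 against 0.0286, 0 and 0.021 FPM (1.37).

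Of 28 tested IGF pathway and imprinted genes 9 were higher and 6 lower (53.6% called, against 35.8% of all genes, median 0.06). H19 and its reciprocally imprinted neighbour Igf2 were both higher, Igf2 at 3.63, 6.71 and 3.64 against 0.1, 0.135 and 0.021 FPM (2.34, limma adjusted p = 0.000782). Igf2r, the receptor that clears IGF2, was at 72.1, 76.2 and 54.5 against 12.9, 22.4 and 3.13 FPM (2.62). Igfbp3 was at 8.58, 11.4 and 6.96 FPM in spliced libraries with 0, 0 and 1 reads in the genomic ones (3.28). The paternally expressed neighbours Peg10 and Sgce on chromosome 6 were lower, Peg10 at 1.54, 0.532 and 0.631 against 55.6, 39.7 and 52.7 FPM (-4.75, limma adjusted p = 1.79e-09) and Sgce at 1.62, 0.862 and 0.757 against 21.03, 24.5 and 15.8 FPM (-3.37). Igfbp5 was not called (1.42, limma adjusted p = 0.101), but passed with the replicate block in the 6 libraries alone and without spliced replicate 3 (adjusted p = 0.000301 and 0.0408). Of 29 targets and partners of Yap and Tead 9 were higher and 7 lower (55.2% called, median -0.18), with 4 lower without spliced replicate 1. Vgll2 and Vgll3, cofactors of Tead, were at 14.1, 10.1 and 14.1 against 1.35, 1.76 and 1.45 FPM (2.44) and 96.97, 64.1 and 66.4 against 22.7, 22.9 and 23.3 FPM (1.66), the canonical targets Ankrd1 and Ccn2 were not called, and Ccn1 was lower (-0.63) but not with segments centred (adjusted p = 0.183) or without spliced replicates 1 or 2 or genomic replicate 2 (adjusted p = 0.0538 to 0.173).

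Neuronal cytoskeleton and synaptic genes were called in 13 of 19, 5 higher and 8 lower (68.4%, against 35.8% of all genes, median -0.20). Beside Stmn2 and Nefl, the medium neurofilament gene Nefm was at 0.101, 0.0733 and 0.162 against 4.18, 5.17 and 7.86 FPM (-2.56) and the adhesion molecule L1cam at 3.21, 1.89 and 3.63 against 30.1, 34.98 and 37.6 FPM (-3.20). In the opposite direction, Gap43 was at 7.62, 7.64 and 9.36 against 0.0573, 0.0506 and 0 FPM (3.15) and the tubulin gene Tubb3 at 56.8, 28.4 and 89.6 against 6.01, 5.72 and 16.4 FPM (2.52). Of 52 semaphorins, ephrins and guidance receptors 19 were higher and 16 lower (67.3% called, median -0.01). Slit2, a ligand of Robo receptors, was at 52.9, 56.8 and 31.5 against 1.15, 1.27 and 0.021 FPM (4.77) and Sema6a at 26.2, 69.2 and 29.2 against 0.573, 0.506 and 0.042 FPM (4.84), whereas Sema5a was at 25.9, 69.9 and 34.4 against 251, 322 and 202 FPM (-2.65) and the receptor gene Plxna4 was lower by a difference of -2.19. Clustered protocadherins were higher in 10 and lower in 2 of 20 (60% called, median 0.43). With segments centred, 6 were higher and 3 lower, and the lower count was 0 without spliced replicate 1 or genomic replicate 2 and 1 without spliced replicate 3 or genomic replicate 1. The highest was Pcdhb17, at 9.79, 15.9 and 10.3 against 3.61, 4.25 and 2.86 FPM (1.49), and reads of these near-identical genes could be split between them.

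Position and lineage genes differed in smaller sets. Of 25 tested Hox genes 2 were higher and 8 lower (40% called, against 35.8% of all genes). The median was -0.12, and 0.14 with segments centred, where 4 were higher and 7 lower. The 3 lowest lie side by side in the Hoxb cluster: Hoxb6 at 0.227, 0.422 and 0.415 against 4.74, 5.55 and 5.82 FPM (-2.23), Hoxb4 (-1.29) and Hoxb5 (-1.14). Hoxc6 was higher, at 17.995, 22.1 and 14.8 against 7.17, 9.39 and 6.03 FPM (1.18). Of 14 keratins and intermediate filament genes 3 were higher and 3 lower (42.9% called, median -0.31). The simple epithelial keratin genes Krt8 and Krt19 were at 0.0505, 0.275 and 0.126 against 7.73, 14.9 and 8.21 FPM (-3.24) and 1.16, 0.88 and 0.974 against 11.3, 14.6 and 7.25 FPM (-2.54), Synm was higher (1.78), and the abundant Vim and Nes were not called, except Nes with the replicate block in the 6 libraries alone (adjusted p = 0.0042). Of 16 adipogenic, osteogenic and chondrogenic genes 6 were higher and 3 lower (56.25% called, median 0.01). The adipogenic regulators Pparg, Cebpa and Cebpd were higher (1.17, 1.66 and 1.82), and the lipase gene Lpl was lower, at 0.202, 0.055 and 0.018 against 17.3, 14.6 and 12.6 FPM (-3.85). Runx2 and Sox9, of bone and cartilage, overlapped and were not called.

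Most interferon-stimulated genes had a positive difference in GM, and few passed the test. Of 53 tested genes 9 were higher and 4 lower (24.5% called, against 35.8% of all genes, median 0.46). With the replicate block 15 were higher and 4 lower (all genes 25.1% and 21.9%). By edgeR on reads 20 were higher and 4 lower (all genes 18.6% and 18.1%), with a median log2 fold change of 1.88. In 46 of the 53 the difference was above 0. In 23 the spliced libraries lay above the genomic ones. Over all genes 45.7% did not overlap, but that share counts both directions and is not a like measure for 1 direction. The summed level of the list overlapped between the lines, at 652 to 1117 FPM in spliced and 738 to 1057 FPM in genomic libraries. The control libraries stood at 972 to 2760 FPM. Ifit1 was at 5.86, 34.6 and 5.48 FPM in spliced and 0.787, 0.996 and 0.294 FPM in genomic libraries (2.81, limma adjusted p = 0.00176), and spliced replicate 2 was the highest. Without that library 5 genes of the list were higher. The RNA sensor gene Ifih1 was at 11.2, 18.1 and 6.85 against 2.28, 1.96 and 0.63 FPM (2.29) and Parp12 at 36.9, 48.5 and 33.7 against 8.88, 8.79 and 6.11 FPM (2.19). The control means of Ifit1, Ifih1 and Parp12, at 89.9, 39.8 and 52.6 FPM, lay above the means of both lines. Ly6e was lower in spliced cells, at 99.1, 74.6 and 79.8 against 303, 349.8 and 237 FPM (-1.79). Oas2 overlapped and was called by edgeR (adjusted p = 0.0315) but not by limma, and Isg15 was called with the replicate block (adjusted p = 0.0246) and by edgeR (adjusted p = 0.0325) but not by limma without the block (1.08, adjusted p = 0.0587). In DM3 51 of the 53 were higher (23.4% of all genes). For the difference between media 49 were called toward higher values in DM3 (5.36% of all genes).

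MHC class I genes moved in both directions, with 3 higher and 5 lower of 24 tested (33.3% called, against 35.8% of all genes, median -0.17). The classical heavy chains H2-K1 and H2-D1 were lower, at 26.4, 44.9 and 33.7 against 86.03, 98.3 and 74.8 FPM (-1.30, limma adjusted p = 2.17e-05) and 36.1, 49.2 and 36.9 against 78.2, 86.7 and 71.9 FPM (-0.95), and reads of these related genes could be split. The peptide transporter gene Tap1 was higher, at 3.23, 3.35 and 3.07 against 0.515, 0.912 and 0.546 FPM (1.35), and B2m was called only with the replicate block in the 6 libraries alone (0.37, adjusted p = 0.00192). By edgeR 5 genes of the list were higher and 6 lower. Of 35 tested chemokines and cytokines 11 were higher and 8 lower (54.3% called, median 0.08). Ccl7 was at 21.05, 5.96 and 11.5 against 182, 60.8 and 163 FPM (-3.31, limma adjusted p = 4.76e-05), its neighbour Ccl2 at 45.8, 12.9 and 19.8 against 124, 50.9 and 66.8 FPM (-1.67) and Cxcl12 at 51.4, 102 and 46.8 against 135, 220.1 and 124 FPM (-1.29). Cxcl5 was higher, at 68.8, 30.7 and 36.3 against 19.3, 15.02 and 8.72 FPM (1.57), and so was the low gene Il6 (0.59), not with segments centred (adjusted p = 0.357) or without spliced replicates 1 or 2 or genomic replicates 1, 2 or 3 (adjusted p = 0.0544 to 0.107). The 11 higher calls of this list became 6 without spliced replicate 1, 7 without spliced replicate 2 or genomic replicate 2, and 4 without genomic replicate 3.

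Ribosomal protein and lipid synthesis genes showed few calls. Of 49 ribosomal protein genes 0 were higher and 2 lower (4.08% called, against 35.8% of all genes, median -0.07). However, 2 were higher with the replicate block, without spliced replicate 2 or without genomic replicate 3, 1 with equal sums and 3 with quantile normalization. Both lower genes, Rpl32 (-0.56) and Rpl22 (-0.35), lost the call with segments centred (adjusted p = 0.447 and 0.762). Rpl32 was not called without spliced replicate 2 or genomic replicate 3 (adjusted p = 0.0932 to 0.0963), and Rpl22 not without spliced replicate 2 or genomic replicates 1, 2 or 3 (adjusted p = 0.0529 to 0.17). The lower count was 0 without spliced replicate 2 or genomic replicate 3, 1 without genomic replicate 1 or 2, and 5 without spliced replicate 3. Of 35 cholesterol and fatty acid synthesis genes 1 was higher and 1 lower (5.71% called, median 0.13), and 3 were higher with the replicate block. The lower gene was Srebf1 (-0.67), a transcription factor of lipid synthesis, and Fasn, fatty acid synthase, overlapped. Of 56 oxidative phosphorylation subunits 6 were higher and 6 lower (21.4% called, median -0.03). The counts were 8 and 12 with the replicate block, 5 and 11 by edgeR, 6 and 3 with equal sums or quantile normalization, and 0 and 1 with segments centred. Without spliced replicate 1 the counts were 3 and 3, and the lower count was 1 without spliced replicate 2 and 3 without genomic replicate 3. Of 29 Nrf2 antioxidant genes 5 were higher and 6 lower (37.9% called, close to the 35.8% of all genes, median -0.22). Without spliced replicate 1 there were 2 higher, and without genomic replicate 3 there were 3. Gsta4 was at 319.7, 168 and 275 against 153, 106 and 122 FPM (0.96) and Gclm, of glutathione synthesis, at 83.01, 60.5 and 73.6 against 139, 89.3 and 144 FPM (-0.75). Of 31 p53 targets 6 were higher and 4 lower (32.3% called, also close to the share of all genes, median 0.00). The counts were 6 and 10 with the replicate block, 6 and 9 by edgeR, and 3 and 7 without genomic replicate 3. The proapoptotic gene Pmaip1 had 1, 0 and 1 reads in spliced and 13.6, 11.9 and 12.1 FPM in genomic libraries (-3.73, limma adjusted p = 8.02e-14).

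Of 29 genes of DNA methylation, Polycomb and cohesin 1 was higher and 6 lower (24.1% called, against 35.8% of all genes, median -0.13). The counts were 4 and 10 with the replicate block, and 2 and 2 with segments centred. The lower count was 3 without spliced replicate 2, genomic replicate 1 or genomic replicate 3. The methyltransferase gene Dnmt3a was higher (0.68, not with segments centred, adjusted p = 0.0803, or without spliced replicate 2 or genomic replicate 3 (adjusted p = 0.0702 to 0.0852)) and the cohesin subunit gene Rad21, on chromosome 15, was at 515, 479 and 420.0 against 684, 694 and 599 FPM (-0.49). Ezh2, the Polycomb methyltransferase on chromosome 6, was lower (-0.65) but not with segments centred (adjusted p = 0.37) or without spliced replicates 2 or 3 or genomic replicates 1 or 3 (adjusted p = 0.0546 to 0.151). Tet1 overlapped and was not called, but passed with the block over 18 libraries (adjusted p = 0.0414), with segments centred (adjusted p = 0.0384) and without genomic replicate 1 (adjusted p = 0.0154). Around Myod1, where MUNC is encoded, 18 genes of chromosome 7 were tested, with a median of -0.27. Of these Myod1 was higher and Saal1 lower (-0.46), which is 11.1% called. With the replicate block 4 were lower, and 2 or 3 without any of spliced replicates 1 and 3 and genomic replicates 2 and 3.

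**Figure D4:**
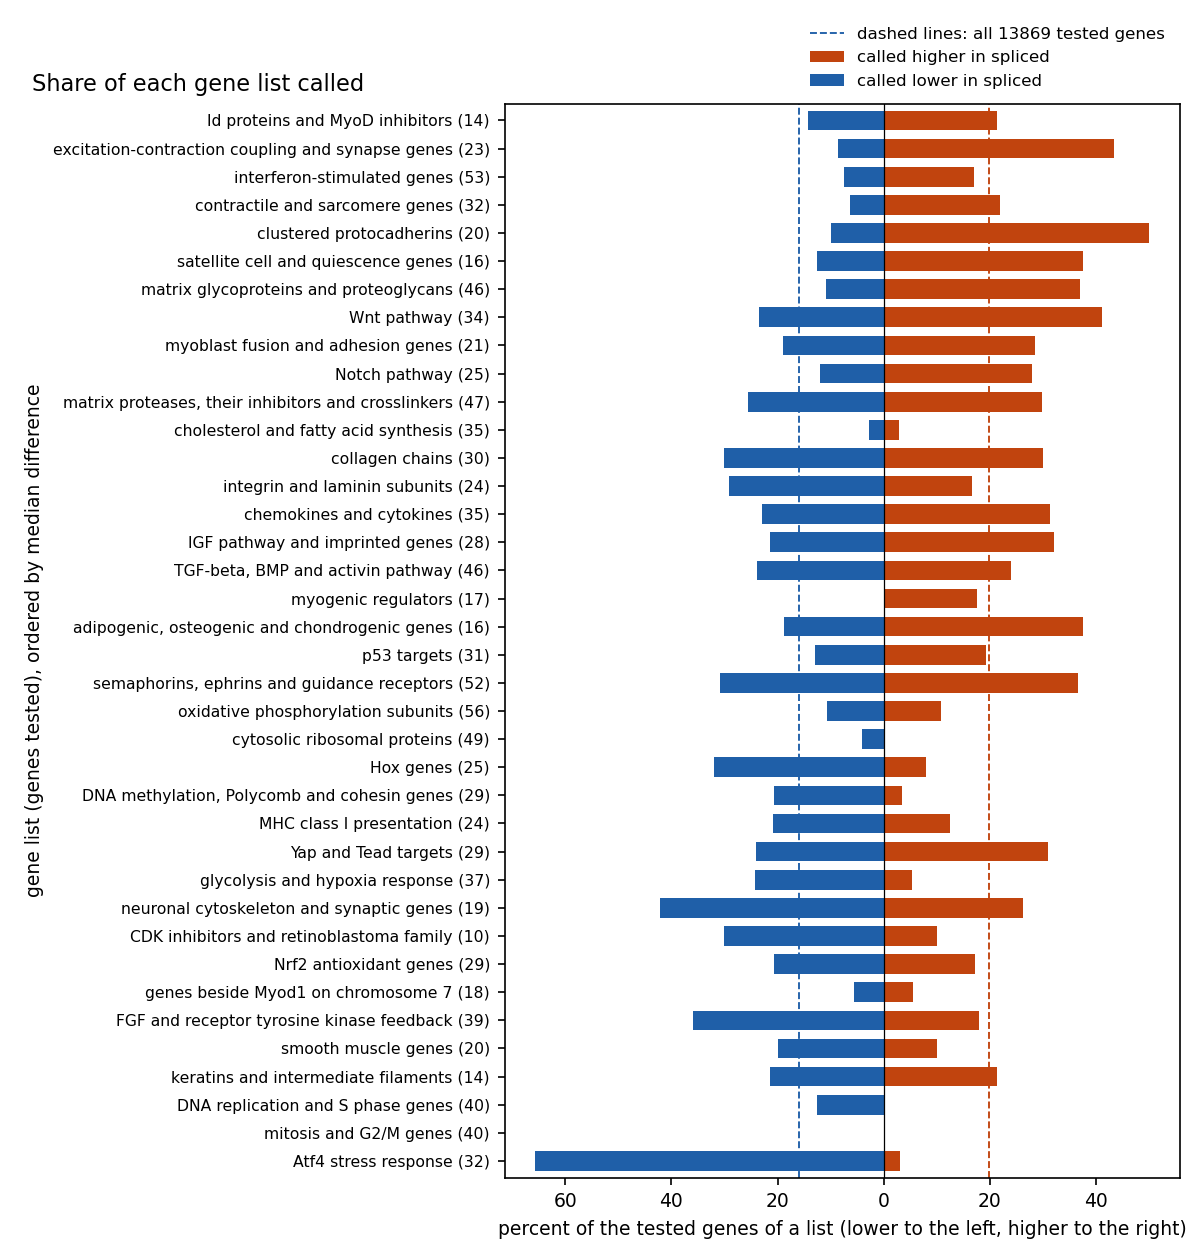
Percent of the tested genes of each of 38 lists called higher (orange, to the right) and lower (blue, to the left) in spliced cells, ordered by the list's median difference, with the number tested in brackets. The dashed lines mark all 13869 tested genes, at 19.9% higher and 16.0% lower, and the Atf4 list reaches furthest to the left.

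Markers of other cell types were read in the same libraries. All 8 myoblast markers were called, against 35.8% of all genes, with 6 higher and 2 lower (median 0.97). Their summed level was 728 to 1019 FPM in spliced and 862 to 1190 FPM in genomic libraries. Without Des, which these sums and those of the smooth muscle and pericyte markers both hold, the ranges were 709 to 977 FPM in spliced and 479 to 568 FPM in genomic libraries for the myoblast and 1927 to 2562 FPM in spliced and 1913 to 2141 FPM in genomic libraries for the smooth muscle and pericyte markers. Of 10 fibroblast and fibro-adipogenic markers 8 were tested, 3 were higher and 1 lower, and the sums of 212 to 373 FPM in spliced and 45.9 to 115 FPM in genomic libraries did not overlap, while Tcf21 had no read in any of the 6 libraries. Of 9 smooth muscle and pericyte markers 5 were tested, 1 was higher and 3 lower, with sums of 1949 to 2582 and 2388 to 2573 FPM, mostly of Acta2 and, in the genomic libraries, next of Des, and Kcnj8 had no read in any of the 6 libraries. The higher call was absent without spliced replicate 2, spliced replicate 3, genomic replicate 1 or genomic replicate 3. Of 9 neuron markers 6 were tested, 2 higher and 4 lower (median -2.50), with sums of 38.3 to 102 FPM against 197 to 262 FPM, and Snap25 and Elavl4 had no read in any of the 6 libraries. Endothelial, macrophage, epithelial, Schwann and adipocyte markers were mostly below the filter. Of 10 endothelial markers 1 was higher and 1 lower, with sums of 0.972 to 1.77 FPM against 7.31 to 7.72 FPM, carried by Cdh5. Of 10 macrophage markers 0 of 2 tested were called, 1 had an unadjusted p under 0.05, edgeR called 0 and the replicate block 1 lower, with sums of 3.19 to 4.62 FPM against 3.85 to 5.27 FPM and no read of Adgre1, C1qa, C1qb or C1qc. The epithelial list gave 0 higher and 1 lower of 2, with sums of 60.6 to 135 FPM against 50.5 to 88.1 FPM, carried by Krt14. The Schwann list gave 1 higher of 3, and 1 lower as well with the replicate block (sums 4.49 to 5.59 against 3.21 to 4.12 FPM) and the adipocyte list 1 higher of 2, Pparg (sums 8.84 to 13.1 against 4.12 to 5.71 FPM). The part of these markers in the results was not tested.

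The calls were not spread evenly over the chromosomes. Grouped after their medians were seen, the 6 chromosomes with a median above 0 in every library pair and the 3 with a median below -0.25 differed by construction. On chromosomes 2, 4, 5, 12, 16 and 18, 83.1% of the calls were higher in spliced cells (1427 against 290, of 4112 tested genes), and on chromosomes 3, 6 and 15 19.2% were higher (174 against 731, of 1913). On the other chromosomes the share was 49.0%. Among genes at 10 FPM or more, the median difference was -0.50 on chromosome 6, -0.36 on chromosome 3 and -0.30 on chromosome 15, and 0.33 on chromosome 4, 0.29 on chromosome 16, 0.22 on chromosomes 2 and 5 and 0.21 on chromosome 12, against -0.04 over all 9532 such genes. On chromosome 6, 9.93% of genes were above 0. For 15 of 20 chromosomes the median had 1 sign in all 9 pairs of a spliced with a genomic library, and 3 against 3 libraries cannot give an exact permutation p below 0.10. Most of these 15 chromosomes shifted along their whole length. Chromosome 4, however, had segment medians of 0.43, 0.46, 0.38 and -0.28 from its start to its end, and chromosome 14 of 0.16, -0.14, -0.26 and -0.22. Chromosome 8, which is not among the 15, had segment medians of -0.19, 0.24, 0.19 and 0.17. In DM3, from other libraries of the same lines, the medians were -0.43, -0.28 and -0.31 on chromosomes 6, 3 and 15 and 0.35 and 0.33 on chromosomes 4 and 16. Over the 20 chromosomes they correlated with those in GM at r = 0.990, where the points share the cell lines but no library. Set against the control, chromosome 6 was at -0.31 in spliced and 0.19 in genomic cells, and chromosome 2 at -0.13 and -0.35. DNA copy number was not tested. With 4 segments of each chromosome, of equal gene number, each centred in each library, 3754 genes were called (27.1%), 50.5% of them higher.

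**Figure D5:**
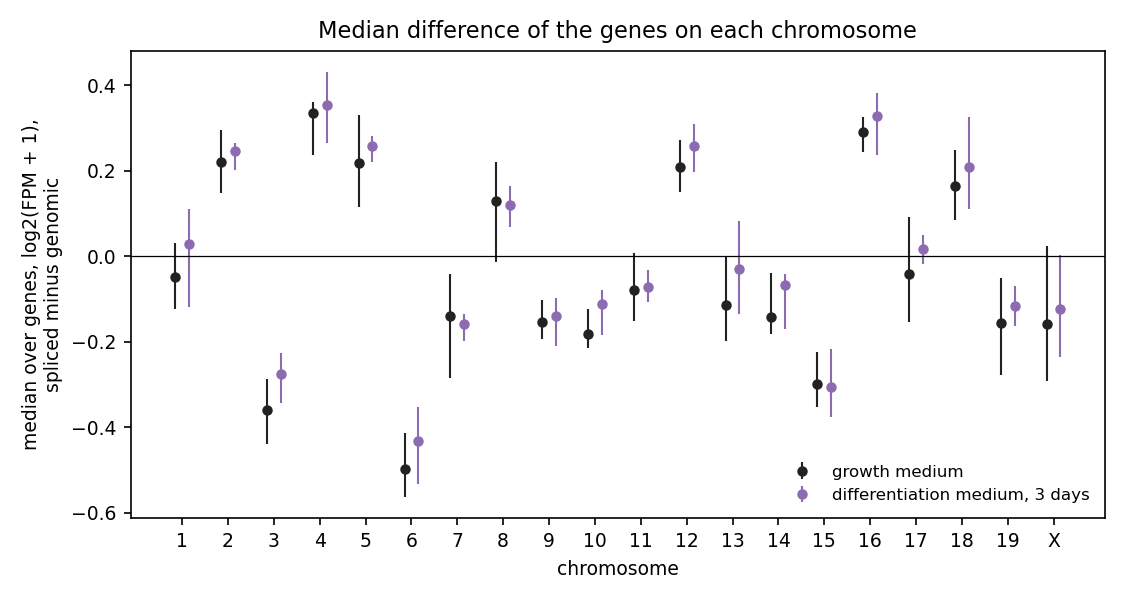
Median difference (vertical axis, spliced minus genomic, log2(FPM + 1)) of the genes at 10 FPM or more on each chromosome (horizontal axis), in GM (black) and DM3 (purple). Bars span the 9 pairs of a spliced with a genomic library, and chromosomes 3, 6 and 15 lie below 0 and 2, 4, 5, 12, 16 and 18 above it in both media.

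A group of genes was near silent in 1 line only, at 3 reads or fewer in every library of that line and at 5 FPM or more on average in the other. This rule was set after the values were seen. It found 32 genes near silent in genomic cells and 13 in spliced cells. Among the first were the adjacent genes Adal, an adenosine deaminase-like gene, and Lcmt2, a tRNA-modifying enzyme, whose 5′ ends overlap on chromosome 2 and which had 0 reads in all 3 genomic libraries. Adal stood at 16.2, 15.5 and 13.6 FPM and Lcmt2 at 9.74, 7.52 and 8.44 FPM in the spliced libraries, and both were present in the control. The window around the Adal start is shown because the 2 genes share this region and differ completely between the lines, with CG dinucleotides, where mammalian DNA can be methylated, in capitals (RefSeq, GRCm38.p6, chr2:121140178-121140477, plus strand), 5′ to 3′.
Adal: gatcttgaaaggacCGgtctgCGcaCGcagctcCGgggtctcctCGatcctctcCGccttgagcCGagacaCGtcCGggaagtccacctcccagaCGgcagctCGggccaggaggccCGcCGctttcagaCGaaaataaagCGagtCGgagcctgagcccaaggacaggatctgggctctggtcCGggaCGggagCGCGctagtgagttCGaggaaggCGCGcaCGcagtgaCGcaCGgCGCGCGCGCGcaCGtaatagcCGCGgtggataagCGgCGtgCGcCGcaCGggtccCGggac
It holds 40 CG, against a median of 20 in the windows of all tested genes. The other listed window of Adal holds 3 CG and that of Lcmt2 holds 15. The 32 windows of the 24 genes near silent in genomic cells that have one held a median of 15 CG, and 56.2% had at least 15, against 65.9% of all 13051 windows, a smaller share than among all windows. DNA methylation was not tested. On the other side, Rin3, a guanine nucleotide exchange factor gene, and Gspt2, a translation termination factor gene, had 0 reads in all spliced libraries and stood at 23.7, 20.3 and 28.2 FPM and at 18.6, 20.4 and 17.1 FPM in the genomic ones.

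Some differences of at least 2 ran over neighbouring genes. Of the 348 called genes this large, 37 fell in 18 runs of tested genes that followed each other on a chromosome and had the same direction. How many such runs a random order of the genes would give was not tested. The longest run was 3 genes, Sgce, Peg10 and Pon3 on chromosome 6. Others included Adal with Lcmt2, Nefm with Nefl, H19 with Igf2, Igf2r with its antisense gene Airn, Omd with Aspn, whose call was lost without spliced replicates 1 or 2 or genomic replicate 3 (adjusted p = 0.0746 to 0.134) and by edgeR (adjusted p = 0.0625), Car3 with Car2, and Magea3 with Magea6. Reads of overlapping or antisense pairs such as Igf2r and Airn, Nefm and Nefl, or Adal and Lcmt2, cannot be told apart unless the counting used strand, which is not given in the sources used here.

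Differentiation medium kept most of the contrast between the lines. In DM3 6135 genes were called (44.2%), and 3210 of the 4970 GM calls (64.6%, which is 52.3% of the DM3 calls) were called in the same direction there, 97 in the opposite direction and 1663 not at all. The difference itself changed between media for 1460 genes (10.5%), 743 (5.36%) toward higher and 717 (5.17%) toward lower values in DM3. Of the 1663 genes called in GM and not in DM3, 299 passed that test, so for the rest a change between media was not shown. The genes called in opposite directions with the largest smaller difference were Socs2, Neat1 and Ralgds on one side and Slfn9, H2-K1 and Cth on the other. Socs2, a suppressor of cytokine signalling, was at 17.995, 21.5 and 10.7 against 5.998, 8.24 and 3.78 FPM in GM (1.34) and differed by -1.01 in DM3. Neat1, the noncoding RNA of paraspeckles, differed by 1.11 in GM and -1.05 in DM3. Slfn9, an interferon-inducible Schlafen gene, was at 10.5, 7.88 and 9.99 against 24.3, 21.5 and 17.4 FPM in GM (-1.07) and differed by 4.20 in DM3. H2-K1 turned from -1.30 to 1.41, and Cth, an enzyme of cysteine synthesis, from -1.21 to 1.68. In GM Cth and Ralgds were not called with segments centred (adjusted p = 0.0918 and 0.107), nor was Cth without spliced replicates 1 or 2 or genomic replicate 2 (adjusted p = 0.0831 to 0.144), or Ralgds without spliced replicate 2 or genomic replicate 3 (adjusted p = 0.104 to 0.11).

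Genes called in GM alone, with the difference between media also called, were headed by BC034090, P3h2 and Sema3c above and by Ccl7, Grem1 and Nefm below. P3h2, a collagen prolyl hydroxylase, was at 23.9, 11.1 and 13.3 against 2.48, 2.09 and 0.966 FPM in GM (2.55) and differed by 0.20 in DM3 (limma adjusted p for the change = 0.000225). Sema3c was at 61.7, 162 and 51.3 against 17.4, 39.9 and 7.67 FPM (2.12) and differed by -0.04 in DM3 (adjusted p for the change = 0.0385). Grem1, a BMP antagonist, was at 33.8, 18.1 and 22.8 against 90.8, 61.2 and 181 FPM (-2.01), below a control mean of 591 FPM, and differed by 0.84 in DM3 (adjusted p for the change = 0.0029). Among the muscle genes Chrna1, Lrp4 and Cdh15 were closer between the lines in DM3, with differences of 0.31, 1.12 and 1.06 (adjusted p for the change = 0.0179, 0.0155 and 0.00223). For Myog, with a difference of 2.98 in DM3, a change was not shown (SE of the change 0.64, limma adjusted p for the change = 0.884).

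The control libraries show on which side a difference lay, as a description without a test, since they are not part of the comparison. Of the 2757 genes higher in spliced cells, the control mean was between the lines for 1681, below both for 664 and above both for 412, and nearer the genomic line for 60.7%. Of the 2213 genes lower in spliced cells, it was between for 1256, below both for 419 and above both for 538, and nearer the genomic line for 54.0%. Des, Igfbp2, Loxl2 and Slc16a3 are examples in which the genomic line stood apart from a control near the spliced line. Fndc1, Sfmbt1, Myog, Ttn and Cacng1 are examples in which the spliced line stood apart. Myod1, Chrna1 and Cd34 were lowest in the control, and Asns, Ccnd2 and Col4a1 had control means of 450.0, 108 and 585 FPM.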

How the data were processed

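PolyA RNA from 18 C2C12 samples, 3 per line and medium, was sequenced by the submitters on a HiSeq 2500, per the labels. STAR, HTSeq, DESeq2 and mm10 are named in the submitters' processing notes, without versions or roles, and counting settings are not given in the sources used here. The authors deposited a table of normalised signal per gene in FPM, which the labels call FPKM but which does not scale with gene length. Its low values are whole reads divided by a size factor, and 100% of values came out whole within 0.05 read. Gene names for 34490 of 35275 identifiers, and coordinates, came from GENCODE M21 (GRCm38), and promoters from RefSeq. The authors' 5 deposited tables of fold changes and p-values were not used.

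Genes with at least 0.5 FPM in 3 libraries were fitted as log2(FPM + 1) with limma 3.58.1 (trend, R 4.3.3) over all 18 libraries and 6 groups, with 12 residual degrees of freedom, and adjusted by Benjamini-Hochberg. The spread is thus shared with groups outside the comparison. The change between media was the difference of both contrasts. edgeR 4.0.16 (quasi-likelihood) and DESeq2 1.42.0 were run on recovered reads. The scripts were tested on simulated data. Replicate numbers pair the GM libraries: deviations from the group means correlated at r = 0.456, 0.699 and 0.727 for numbers 1, 2 and 3, and every library correlated best with its own number. The block over 18 libraries is printed beside a list where it moved a count by over 1.5 times, and in either form beside a gene named as not called where it gave a call.

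The members, the 38 gene lists and the 9 marker lists were chosen with earlier results of these data known. Named genes are Myod1, Myog and Myh3, the 10 highest and 10 lowest called genes without overlap and with 5 FPM or more in the higher line, the 4 per direction with the largest FPM difference, each list's landmarks and up to 3 extremes per direction, and 3 per direction for each pattern between media; some genes this rule names are not reported here. Genes near silent in 1 line and neighbour runs were chosen after the values were seen. Alternatives were other added constants, filters, scalings, tools, library sets and blocks. Centring on 4 segments of each chromosome was added after seeing the data.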

Additional observations from a re-analysis of the deposited data

Results flagged for a closer look

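Of the genes named in the report, those below had a spliced minus genomic difference that itself differed between GM and DM3, by the limma test of that change over all 13869 genes (adjusted p under 0.05, as for 10.5% of them). The value after each gene is its DM3 minus GM change on the log2(FPM + 1) scale.

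Genes with a positive difference in both media and a larger one in DM3 were Fzd8 (0.53), Zeb2 (1.14), Il6 (1.35), Parp12 (1.52), Rspo3 (1.61), Fndc1 (1.71), Slit2 (1.88), Omd (2.04), B2m (2.05), Bmp4 (2.07), Prelp (2.14), Slc24a3 (2.18), Krt14 (2.25), Axin2 (2.27), Tap1 (2.29), Igf2 (2.31), Mymk (2.39), Ifih1 (2.60), Ifit1 (3.74), Isg15 (4.13) and Oas2 (7.23). Among them Oas2, Isg15, Ifit1, Ifih1, Parp12 and Tap1 are interferon-inducible. The difference was positive in both media and smaller in DM3 for P3h2 (-2.35), Cdh15 (-1.78), Chrna1 (-1.56), Sfmbt1 (-1.28), Lrp4 (-1.24) and Synpo2 (-0.94).

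A negative difference in both media that was closer to 0 in DM3 was found for Cdh5 (0.62), Plxna4 (0.85), Ccnd2 (0.90), Mthfd2 (1.02), Col7a1 (1.04), Stmn2 (1.06), Rin3 (1.11), Lpl (1.16), Pfkp (1.20), Asns (1.26), Kcnab2 (1.35), Aldh1l2 (1.36), Peg10 (1.67), Nfatc2 (1.77), Smoc2 (1.86), Igfbp2 (1.97), Nefm (2.06) and Ccl7 (2.88). It was further from 0 in DM3 for Loxl2 (-3.12), Col18a1 (-2.63), Col4a6 (-2.13), Wnt7b (-1.80), Mmp2 (-1.21), Nes (-1.08), Cacna1b (-1.01), Bmpr1b (-0.96) and Sox9 (-0.96).

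The fitted difference changed sign between the media, from below 0 in GM to above 0 in DM3, for Atf4 (0.64), Srebf1 (0.88), Ddit3 (1.79), Psat1 (1.92), H2-D1 (2.03), Ly6e (2.46), H2-K1 (2.71), Grem1 (2.85), Cth (2.89) and Slfn9 (5.27). It changed from above to below 0 for BC034090 (-2.83), Ralgds (-2.48), Heyl (-2.35), Socs2 (-2.35), Neat1 (-2.16), Sema3c (-2.16) and Itga7 (-1.42). A sign was not tested by itself, and genes such as Sema3c and Atf4 had DM3 values close to 0.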

How the results depend on the processing

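The 4970 GM calls stayed between 3754 and 6518 under other constants, filters, scalings, tools and the replicate block over 18 libraries. They moved to 7966 with the replicate block in the 6 libraries, against 4022 there without it, to 1029 in the libraries whose source field fits the title, and to 1264 with a difference of at least 1. Leaving out 1 library gave 4034 to 4607. The share of calls higher in spliced cells was 55.5%, 61.4% with equal sums, 51.6% with quantile normalization, 50.5% with segments centred, 50.7% by edgeR and 50.9% by DESeq2. The 1460 changes between media moved to 2716 with the replicate block, to 63 in the libraries whose source field fits and to 686 with a change of at least 1, and edgeR gave 991. Without 1 library these changes ranged from 930 (without genomic DM3 replicate 3) to 1597, with 953 without genomic GM replicate 1. Replicate numbers in DM3 did not all pair (r = 0.320, 0.0939 and 0.434). The cause of these moves was not tested, except that the source field leaves 1 library per line in GM.

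Of the 212 genes named in the report, 110 kept direction and side of the threshold under all 20 alternatives and 72 lost a call under at least 1, 71 of them in the libraries whose source field fits. The replicate block in either fit lost none of their calls and gained 4 with all 18 libraries and 16 with the 6. Apart from the losses given beside the genes, calls were lost with no filter on low values for Actc1, Aspn, Ccn1, Cdkn1b, Cth, Ezh2, Hk2, Il6, Mcm6, Rpl22 and Sparc (adjusted p = 0.0544 to 0.119); in the fit of the 6 libraries alone for Aspn, Ccn1, Cdkn1b, Dnmt3a, Hk2, Ralgds, Rpl22, Rpl32, Sparc, Timp1 and Zeb1 (adjusted p = 0.0551 to 0.113); with quantile normalization for Actc1, Cdkn1b, Il6, Mcm6 and Rpl22 (adjusted p = 0.0542 to 0.0992); with equal sums for Cdkn1b, Mcm6 and Rpl22 (adjusted p = 0.0503 to 0.0608). The fitted difference of 13 uncalled genes changed sign, with equal sums for Fasn (0.018) and Spry4 (0.032), with quantile normalization for Acta1 (-0.036) and Fasn (0.052), with segments centred for Acta1 (-0.12), Ddit3 (0.032) and Vim (-0.059), in the libraries whose source field fits for Acta1 (-1.004), Oas2 (-0.023), Runx2 (-0.091), Sox9 (0.20), Spry4 (0.51) and Vim (-0.083). Without 1 library it ranged across 0 for Acta1 -0.51 to 0.43, Acta2 -0.11 to 0.15, Ccn2 -0.60 to 0.22, Ddit3 -0.22 to 0.054, Fasn -0.26 to 0.26, Fn1 -0.60 to 0.11, Pcna -0.31 to 0.0077, Slc2a1 -0.17 to 0.0024 and Spry4 -0.22 to 0.25. Their libraries overlap between the lines. Depth limits values under 0.0757 FPM, the level of 3 reads in the shallowest library.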
